A study of Mus musculus with 16 samples.

Results

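The levels of 41 interferon response genes were followed in mouse liver after oxaliplatin. The genes were taken by symbol from a list of genes known to respond to interferon, as rows of a count table of 40840 gene symbols. They were chosen with earlier results of these data known. All 41 symbols were found, and all 41 were among the 14484 genes that passed the filter on low counts. The study asked how the time of dosing and the cryptochromes change the tolerability of oxaliplatin, a platinum drug that crosslinks DNA. Polyadenylated RNA from the livers of male C57BL/6J mice, 12 to 16 weeks old, was sequenced in 4 groups of 4 libraries. The groups were Cry1-/-Cry2-/- mice (CryDKO) dosed at circadian time 16 (CT16), CryDKO mice dosed at CT8, wild-type (WT) mice dosed at CT16 and WT mice dosed at CT8. Each animal in every group, WT included, received oxaliplatin at 12 mg/kg into the peritoneum, in constant darkness that began 3 days before dosing. The treatment label gives 3 consecutive days of dosing, while the series text also speaks of 1 dose. No group without oxaliplatin was analysed here, and the hour at which livers were taken is not given in the sources used here, so CT8 and CT16 name dosing times. The double knockout is a constitutive loss in the whole animal, bred from heterozygous mice supplied by another laboratory.

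Interferons are secreted proteins that cells release when they sense foreign or misplaced nucleic acid. The type I receptor activates the kinases JAK1 and TYK2, and phosphorylated STAT2 works with IRF9 in the complex ISGF3. ISGF3 binds the interferon-stimulated response element (ISRE), while interferon gamma acts mainly through the gamma-activated site (GAS). The genes switched on this way encode RNA sensors, antiviral effectors, GTPases that attack intracellular microbes, and the machinery that loads peptides on class I molecules. Hepatocytes, endothelium and Kupffer cells all respond to interferon. Cryptochromes are repressors of the circadian clock.

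The 41 members were ordered by role. They comprise 3 transcription factors, 4 sensors of foreign nucleic acid or their partners, ISG15 with its protease, 4 IFIT proteins, 5 OAS and OAS-like proteins and 10 further antiviral or apoptotic effectors. The other groups are 7 immunity-related or guanylate-binding GTPases, the PARP9, PARP14 and DTX3L group of 3, and 3 genes of class I antigen processing.

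Promoter stretches of 5 members are shown because they carry the element that defines the class, in genes that fell in libraries labelled CryDKO (Ifit1, Gbp7 and Rsad2) and in genes that did not pass the test (Isg15 and Oas1a). They are RefSeq sequences of build GRCm38.p6, read 5′ to 3′ on the strand of the gene and ending at the base before the transcript start. Capitals mark every match to the core of the ISRE, searched as GAAA, any 2 bases and GAAA, on either strand (read on the other strand as TTTC, any 2 bases and TTTC).

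Ifit1 promoter, chr19:34640769-34640888, plus strand: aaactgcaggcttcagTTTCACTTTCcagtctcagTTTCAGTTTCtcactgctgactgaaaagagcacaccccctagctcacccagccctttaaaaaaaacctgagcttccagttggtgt
Isg15 promoter, chr4:156200819-156200918, minus strand: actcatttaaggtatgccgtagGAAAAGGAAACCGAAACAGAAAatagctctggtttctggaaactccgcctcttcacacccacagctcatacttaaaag
Gbp7 promoter, chr3:142530256-142530335, plus strand: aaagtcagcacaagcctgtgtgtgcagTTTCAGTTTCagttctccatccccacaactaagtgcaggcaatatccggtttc
Rsad2 promoter, chr12:26456453-26456592, minus strand: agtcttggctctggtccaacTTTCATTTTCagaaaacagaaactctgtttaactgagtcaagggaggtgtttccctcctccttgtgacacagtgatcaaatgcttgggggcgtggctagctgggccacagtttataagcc
Oas1a promoter, chr5:120907526-120907585, minus strand: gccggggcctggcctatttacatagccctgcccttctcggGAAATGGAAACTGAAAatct

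Ifit1 holds 2 separate matches, Isg15 an overlapping run of 3 and Oas1a an overlapping pair, and Gbp7 and Rsad2 hold 1 each. Promoter windows of 250 bases before to 50 after the transcript start were found for 31 of the 41 members. The ISRE core occurred in 16 of these 31 members (51.6%), against 3.99% of the 27025 genes with a window. TTCNNNGAA, the core of the GAS, which reads the same on both strands, occurred in 8 of the 31 (25.8%), against 9.55% of all those genes. Among members lower in libraries labelled CryDKO at CT8 or CT16, 6 of 14 with a window held the ISRE core and 1 held TTCNNNGAA. Among members not called by genotype, the counts were 10 and 7 of 17. A match is a description of letters in a window and not a measured binding site.

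**Figure D1:**
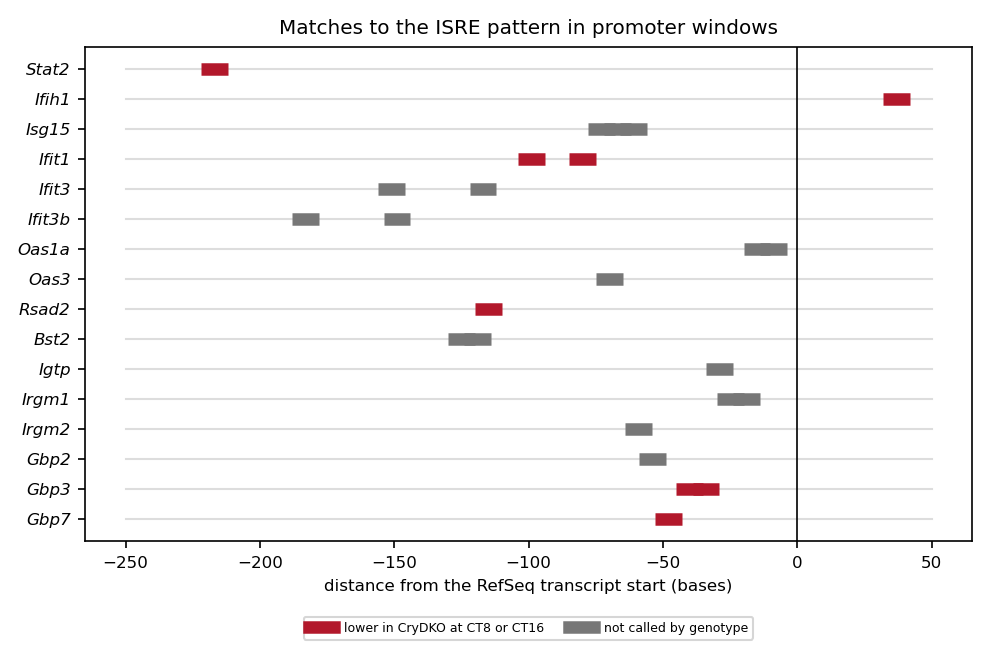
Positions of matches to the ISRE core (GAAA, any 2 bases, GAAA; either strand) in the promoter windows of the 16 members that hold one. The x axis is the distance in bases from the RefSeq transcript start, each row is 1 gene, red marks genes lower in libraries labelled CryDKO at CT8 or CT16, and grey marks genes not called by genotype. Red and grey genes both appear close to the start and farther upstream, and the match in Ifih1 lies after the start.

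Between 18083916 and 29934138 reads were counted per library, of which the 41 genes took 12201 to 34033. Levels are given in CPM, counts put on an equal library size with the trimmed mean of M values, and are not compared between genes because CPM takes no account of gene length. All 6 hepatocyte markers passed the filter on low counts, and Alb was at 66061 to 115461 CPM in libraries labelled CryDKO at CT16, 72226 to 102145 at CT8, against 35277 to 63024 in WT at CT16 and 33147 to 39462 in WT at CT8. Cry2 spanned 23.1 to 33.3 CPM across both groups labelled CryDKO, against 39.9 to 58.9 CPM across both WT groups. Cry1 spanned 20.5 to 29.0 CPM under the CryDKO label, against 5.14 to 15.9 CPM in WT. A loss of both transcripts was thus not seen in these whole-gene counts, so CryDKO below means the label, and each direction by genotype rests on it. WT_CT16 library 8 stood apart: its mean correlation of log2 CPM was 0.984 with the WT_CT8 libraries and 0.974 with the others of its own group. In libraries labelled CryDKO the dosing times were less distinct, and 4 of the 8 (libraries 15, 16, 11 and 12) also correlated more with the other dosing time than with their own, by up to 0.00502, against 0.0102 for WT_CT16 library 8. Counts at CT16, and the members called there, are therefore also given without WT_CT16 library 8. The labels do not say that replicates are separate animals, so each p reflects how far these samples spread, part of which may be technical.

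The interferon response genes called by genotype were all lower in libraries labelled CryDKO than in WT, at both dosing times. At CT8, 15 of the 41 fell and 0 rose by edgeR's quasi-likelihood test at a Benjamini-Hochberg adjusted p under 0.05, while among all genes tested 20.3% fell and 18.7% rose. At CT16, 11 of the 41 fell and 0 rose, against 9.15% of all genes that fell and 9% that rose. Because the members were chosen with earlier results of these data known, their counts beside these shares are a description. The fallen genes came from several roles: antiviral or apoptotic effectors were 6 of the 15 at CT8 and 4 of the 11 at CT16, and transcription factors 3 and 2. The median log2 change of the members was -0.26 at CT8 and -0.45 at CT16, where the median of all genes tested was -0.02 and -0.01. The log2 change was below 0 for 30 of 41 members at CT8 and 34 of 41 at CT16.

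The CT8 and CT16 genotype comparisons set different libraries against each other. Both came from 1 fit over all 16 libraries with a common filter, scaling and estimate of spread, so they are not independent. Dtx3l, Ifit1, Irf7, Irf9, Rtp4, Samd9l and Xaf1 fell in both, which is 7 genes, of the 15 that fell at CT8 and the 11 that fell at CT16. How many of all genes tested fell at both times was not counted, so this overlap is given as a description of the members. A further 8 were called at CT8 alone and 4 at CT16 alone, and a difference in these calls is not a difference between the times, which is tested further on. All 4 libraries labelled CryDKO lay below all 4 WT libraries for 11 members at CT8, where this held for 20.5% of all genes, and for 10 members at CT16, where it held for 10.2%. For 0 members did all libraries labelled CryDKO lie above all WT libraries, against 18.7% of all genes at CT8 and 9.65% at CT16. The 26 members not called at CT8 had log2 changes of -0.77 to 0.74, and the 30 not called at CT16 had log2 changes of -1.06 to 0.34.

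**Figure D2:**
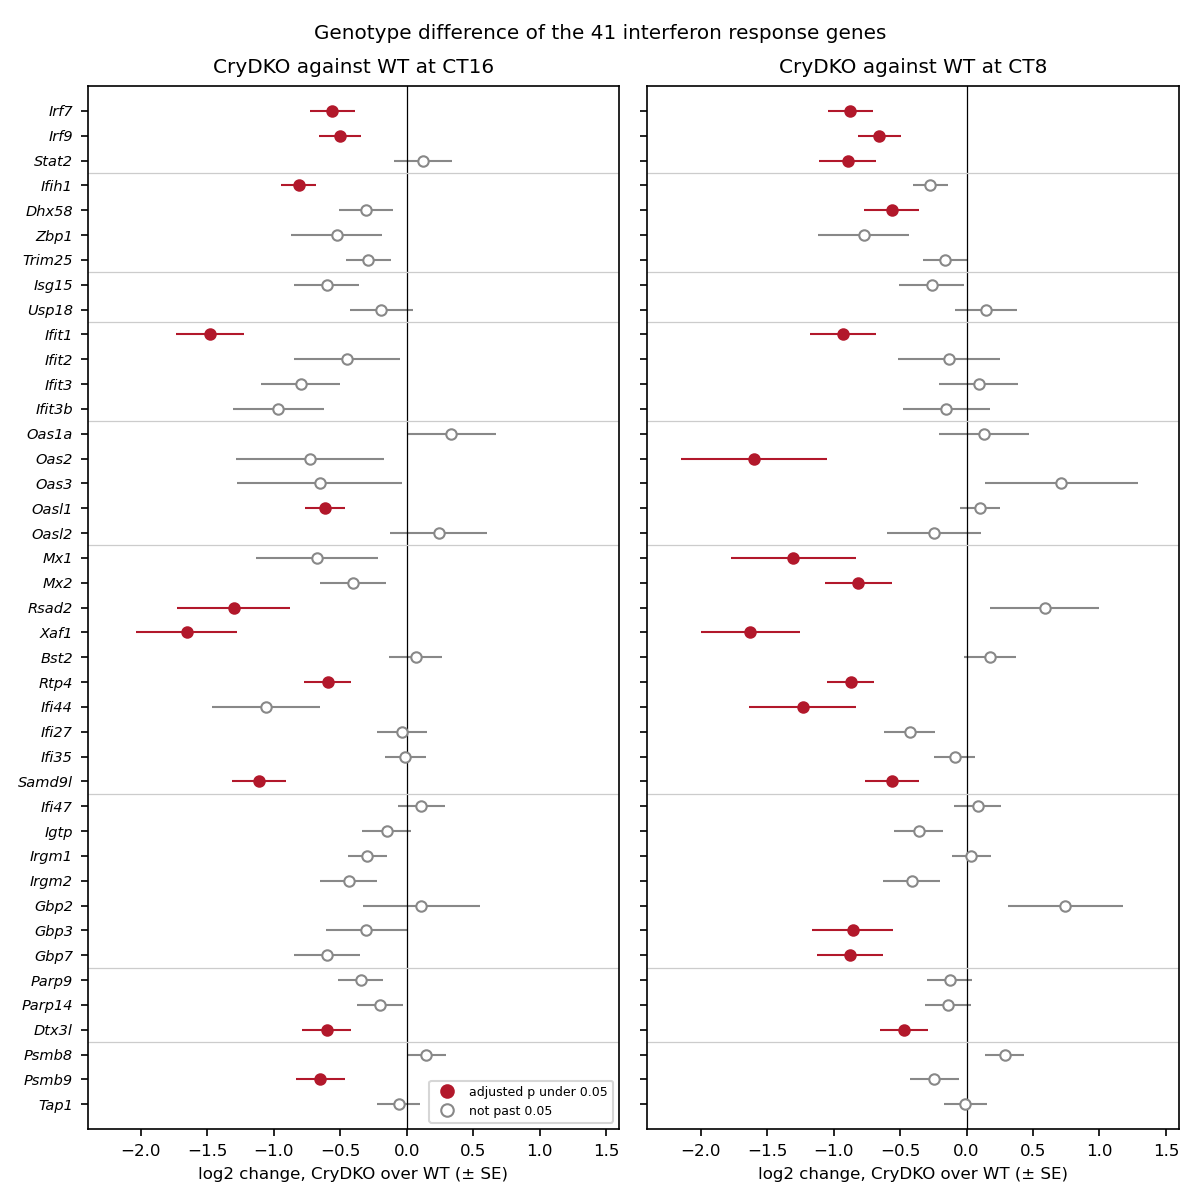
Log2 change of each of the 41 members between libraries labelled CryDKO and WT, at CT16 on the left and CT8 on the right, with 1 row per gene and lines between roles. Points are estimates with SE bars, filled red where the adjusted p was under 0.05 (11 genes at CT16 and 15 at CT8), and every filled point lies left of 0.

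Leaving out single libraries changed the counts. At CT8 the 15 genes that fell became 7 without WT_CT8 library 2, where 14.8% of all genes fell, and 9 without CryDKO_CT8 library 9 or library 10, where 15.7% and 17.5% fell. Without CryDKO_CT8 library 15 it was 10, where 17% of all genes fell. The members' count was thus close to the share of all genes without WT_CT8 library 2, and not far above it without CryDKO_CT8 library 9, 10 or 15. At CT16 the 11 became 6 without CryDKO_CT16 library 13 or WT_CT16 library 5, where 6.26% and 8.11% of all genes fell, and 7 without CryDKO_CT16 library 14 or WT_CT16 library 8, where 7.86% and 6.89% fell. Without WT_CT16 library 8 the median member change at CT16 was -0.36. The 7 members that fell in that fit were Ifit1 (-1.47), Rsad2 (-1.46), Xaf1 (-1.29), Samd9l (-0.95), Ifih1 (-0.83), Dtx3l (-0.68) and Oasl1 (-0.64), while Psmb9 (-0.57), Irf7 (-0.49), Irf9 (-0.44) and Rtp4 (-0.44, log2 changes by edgeR) were no longer called. The other 30 members had log2 changes of -0.98 to 0.58 there. Calls that held in every alternative setting and with each library left out in turn were Gbp7, Ifit1, Irf7, Irf9, Rtp4, Stat2 and Xaf1 at CT8, and Ifih1, Ifit1, Oasl1, Samd9l and Xaf1 at CT16.

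All 3 transcription factors fell at CT8, where 20.3% of all genes fell. Irf7, the factor that amplifies type I interferon production, was at 18.8, 20.7, 25.6 and 23.9 CPM in libraries labelled CryDKO at CT8, against 34.1, 52.4, 37.97 and 38.5 CPM in WT. The groups did not overlap, and the log2 change was -0.87 ± 0.17 (adjusted p = 7.02e-04, edgeR; ± is the SE for log2 changes throughout). At CT16 Irf7 was at 31.7, 26.8, 26.4 and 19.4 CPM in libraries labelled CryDKO and 41.5, 30.00, 37.4 and 44.6 CPM in WT. Here 1 CryDKO library exceeded the lowest WT library, and the log2 change was -0.56 ± 0.17 (adjusted p = 0.0266). That call was lost without CryDKO_CT16 library 12, 13 or 14 or WT_CT16 library 5 or 8 (adjusted p of 0.0511 to 0.0810).

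Irf9, the DNA-binding subunit of ISGF3, was at 21.3, 21.03, 23.5 and 28.6 CPM in libraries labelled CryDKO at CT8, against 39.2, 41.7, 37.1 and 30.7 CPM in WT, a log2 change of -0.66 ± 0.16 (adjusted p = 0.00360, edgeR). CT16 levels were 30.5, 30.2, 29.01 and 18.6 CPM in libraries labelled CryDKO, against 40.7, 33.2, 35.2 and 44.04 CPM in WT. No CryDKO library reached a WT library at either time, and library 14 was well below its group at CT16. The log2 change at CT16 was -0.50 ± 0.16 (adjusted p = 0.0345), and the call was lost without CryDKO_CT16 library 13 or 14 or WT_CT16 library 5 or 8 (adjusted p of 0.0548 to 0.0992) or with only the groups compared in the fit (adjusted p = 0.0617). An exon of Irf9 shares 123 bases with one of Rnf31 on the same strand, and one of Irf7 shares 45 bases with Phrf1 on the opposite strand, in the GENCODE annotation of GRCm38, so a few reads could be split or lost.

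Stat2, the ISGF3 subunit that carries the activation domain, fell at CT8 but not at CT16. It was at 48.9, 72.8, 50.8 and 87.3 CPM in libraries labelled CryDKO at CT8, against 117, 149, 95.5 and 122 CPM in WT, a log2 change of -0.90 ± 0.22 with no overlap (adjusted p = 0.00362, edgeR). At CT16 it was at 83.8, 76.9, 88.5 and 60.2 CPM in libraries labelled CryDKO and 65.1, 50.7, 64.4 and 104 CPM in WT. WT library 8 was the highest and the other WT libraries lay among or below the CryDKO libraries, and the log2 change was 0.12 ± 0.22 (adjusted p = 0.727), and 0.35 without library 8. In the 2 WT groups Stat2 was lower at CT16 than at CT8 in every library but library 8.

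Of the sensors, Ifih1 fell at CT16 and Dhx58 at CT8. Ifih1 encodes MDA5, which detects long double-stranded RNA, and Dhx58 encodes its helicase relative LGP2. Ifih1 was at 20.6, 16.1, 18.2 and 15.98 CPM in libraries labelled CryDKO at CT16, against 37.5, 28.96, 27.5 and 30.4 CPM in WT. The lowest WT library stood well above the highest CryDKO library, and the log2 change was -0.81 ± 0.13 (adjusted p = 4.71e-04, edgeR). At CT8 the levels were 17.4, 16.3, 18.8 and 20.7 CPM in libraries labelled CryDKO and 20.4, 22.00, 24.9 and 21.2 CPM in WT, which overlapped slightly, with a log2 change of -0.27 ± 0.13 (adjusted p = 0.105). By edgeR, Ifih1 was called lower at CT8 with a mean of at least 50 reads (adjusted p = 0.0366) or library size alone (adjusted p = 0.00363). Dhx58 had a log2 change of -0.56 ± 0.20 at CT8 (adjusted p = 0.0345) and -0.31 ± 0.20 at CT16 (adjusted p = 0.312). Its CT8 call was lost without CryDKO_CT8 library 9 or 10 or WT_CT8 library 2, 3 or 4 (adjusted p of 0.0703 to 0.120) or with no low-count filter (adjusted p = 0.0722). By edgeR, Zbp1, a sensor of Z-form nucleic acid, had log2 changes of -0.77 ± 0.34 and -0.53 ± 0.34, and Trim25, a ubiquitin ligase of RIG-I signalling, -0.16 ± 0.17 and -0.29 ± 0.17, at CT8 and CT16, with no call. Zbp1 was called lower at CT8 by DESeq2 (adjusted p = 0.0492) and limma voom (adjusted p = 0.0423).

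The ubiquitin-like modifier ISG15 and the protease USP18, which removes it, were not called. Isg15 was at 4.41, 6.72, 4.05 and 4.05 CPM in libraries labelled CryDKO at CT16, against 7.01, 5.90, 7.28 and 9.10 CPM in WT. Only library 12 of the CryDKO group entered the WT range, and the log2 change was -0.60 ± 0.25 (adjusted p = 0.0922, edgeR); without CryDKO_CT16 library 12 it was -0.81 (adjusted p = 0.0425). At CT8 Isg15 was at 5.27, 4.27, 3.38 and 7.63 CPM in libraries labelled CryDKO and 4.997, 6.84, 7.76 and 5.07 CPM in WT, groups that overlapped, with a log2 change of -0.26 ± 0.24. Usp18 had log2 changes of 0.14 ± 0.23 at CT8 and -0.19 ± 0.23 at CT16.

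Of the 4 IFIT genes, whose proteins bind foreign RNA and block its translation, Ifit1 fell at both times. It was at 4.23, 4.67, 2.38 and 4.41 CPM in libraries labelled CryDKO at CT8, against 5.44, 7.77, 10.1 and 6.75 CPM in WT. Its CT16 levels were 4.59, 3.72, 2.34 and 2.25 CPM in libraries labelled CryDKO, against 9.90, 9.28, 7.39 and 9.48 CPM in WT. Every CryDKO library was below every WT library at both times, with log2 changes of -0.93 ± 0.25 (adjusted p = 0.00697) at CT8 and -1.48 ± 0.26 (adjusted p = 7.37e-04) at CT16 by edgeR. Ifit3 had a log2 change of 0.09 ± 0.29 at CT8 and -0.80 ± 0.30 at CT16 (adjusted p = 0.0682), and Ifit3b -0.15 ± 0.33 and -0.96 ± 0.34 (adjusted p = 0.0534), with DESeq2 calling both at CT16 (adjusted p = 0.0443 and 0.0255). Ifit3 and Ifit3b are close copies, so the split of reads between them is uncertain. Ifit2 was at no more than 2.00 CPM in any library and was not called.

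The OAS proteins make an oligoadenylate that activates RNase L. Oas2 fell at CT8 and Oasl1, an OAS-like protein that in mice restrains translation of Irf7, fell at CT16. Oasl1 was at 7.35, 7.34, 5.65 and 5.74 CPM in libraries labelled CryDKO at CT16, against 10.2, 9.96, 10.1 and 9.62 CPM in WT. The 4 WT libraries were tightly grouped and all above the CryDKO libraries, with a log2 change of -0.61 ± 0.15 (adjusted p = 0.00864, edgeR). At CT8 it was at 7.19, 6.24, 7.30 and 7.58 CPM in libraries labelled CryDKO and 5.55, 7.18, 6.80 and 6.90 CPM in WT, which overlapped, with a log2 change of 0.10 ± 0.15 (adjusted p = 0.627). Oas2 was at 1.18, 1.62, 0.498 and 1.83 CPM in libraries labelled CryDKO at CT8, against 4.45, 4.98, 2.43 and 3.75 CPM in WT, a log2 change of -1.60 ± 0.55 (adjusted p = 0.0292) with no overlap. This call was lost without CryDKO_CT8 library 9 or 15 or WT_CT8 library 1 or 2 (adjusted p of 0.0592 to 0.0772) or with no low-count filter (adjusted p = 0.0728). At CT16 the log2 change of Oas2 was -0.73 ± 0.56, and 0.38 without WT_CT16 library 8. Oas1a, Oas3 and Oasl2 were not called, with log2 changes of -0.25 to 0.71 at CT8 and -0.66 to 0.34 at CT16. The Oas1 genes are near-identical copies, and Oas3 lay below 0.70 CPM in every library.

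Among the 10 other effectors, 6 fell at CT8 (Xaf1, Mx1, Ifi44, Rtp4, Mx2 and Samd9l) and 4 at CT16 (Xaf1, Rsad2, Samd9l and Rtp4). Of all genes, 20.3% fell at CT8 and 9.15% at CT16. Xaf1, which encodes an antagonist of the apoptosis inhibitor XIAP, was at 2.92, 2.38, 2.10 and 5.95 CPM in libraries labelled CryDKO at CT8, against 6.72, 14.02, 11.5 and 9.04 CPM in WT. At CT16 it was at 3.06, 3.41, 1.77 and 1.38 CPM in libraries labelled CryDKO, against 5.86, 5.58, 6.03 and 12.9 CPM in WT. The groups did not overlap at either time, and log2 changes were -1.63 ± 0.37 (adjusted p = 0.00288) at CT8 and -1.66 ± 0.38 (adjusted p = 0.00727) at CT16 by edgeR. WT_CT16 library 8 stood far above the others of its group, and without it the CT16 log2 change was -1.29 (adjusted p = 0.0203).

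Rtp4, a chaperone of membrane receptors with antiviral activity, was at 8.67, 9.84, 8.13 and 12.1 CPM in libraries labelled CryDKO at CT8, against 14.1, 19.7, 20.7 and 16.5 CPM in WT. The levels at CT16 were 12.1, 11.4, 9.48 and 11.5 CPM in libraries labelled CryDKO, against 17.6, 13.2, 13.96 and 22.1 CPM in WT. Again no CryDKO library reached a WT library at either time. Log2 changes were -0.87 ± 0.18 (adjusted p = 9.91e-04, edgeR) at CT8 and -0.59 ± 0.18 (adjusted p = 0.0252) at CT16. The CT16 call was lost without CryDKO_CT16 library 13 or WT_CT16 library 5 or 8 (adjusted p of 0.0527 to 0.0919).

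Samd9l, an interferon-induced brake on growth and viral replication, was at 7.89, 7.64, 7.64 and 10.5 CPM in libraries labelled CryDKO at CT8, against 10.5, 13.99, 13.3 and 11.8 CPM in WT. At CT16 it was at 6.53, 6.28, 4.51 and 3.94 CPM in libraries labelled CryDKO, against 12.3, 8.20, 9.996 and 15.4 CPM in WT. The gap was narrow at CT8, where library 16 came close to WT, and wider at CT16. Log2 changes were -0.56 ± 0.20 (adjusted p = 0.0326, edgeR) at CT8 and -1.11 ± 0.21 (adjusted p = 0.00128) at CT16. The CT8 call was lost without CryDKO_CT8 library 9, 10 or 15 or WT_CT8 library 2, 3 or 4 (adjusted p of 0.0529 to 0.0938) or with no low-count filter (adjusted p = 0.0518).

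The dynamin-like GTPase gene Mx2 was at 3.79, 5.08, 5.31 and 7.68 CPM in libraries labelled CryDKO at CT8, against 8.63, 13.7, 7.43 and 8.56 CPM in WT. Library 16 overlapped the lowest WT library, and the log2 change was -0.81 ± 0.25 (adjusted p = 0.0151, edgeR); the call was lost without CryDKO_CT8 library 9 (adjusted p = 0.0563) or WT_CT8 library 2 (adjusted p = 0.0846). At CT16 Mx2 was at 5.06, 8.54, 6.22 and 5.02 CPM in libraries labelled CryDKO and 8.09, 7.48, 6.03 and 11.3 CPM in WT, with overlap and a log2 change of -0.40 ± 0.25. Mx1, whose allele is known to be defective in C57BL/6 mice, stayed below 1.30 CPM throughout and had a log2 change of -1.30 ± 0.47 at CT8 (adjusted p = 0.0330), lost without CryDKO_CT8 library 10, 15 or 16 or WT_CT8 library 2 or 4, or with no low-count filter (adjusted p = 0.0599). Ifi44 had log2 changes of -1.23 ± 0.40 at CT8 (adjusted p = 0.0210) and -1.06 ± 0.40 at CT16 (adjusted p = 0.0731), the first lost without CryDKO_CT8 library 9 or 10 or WT_CT8 library 2. DESeq2 called Ifi44 lower at CT16 (adjusted p = 0.0425). So did edgeR without CryDKO_CT16 library 12 (adjusted p = 0.0483) or WT_CT16 library 6 (adjusted p = 0.0377).

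Rsad2, which encodes viperin, an enzyme that makes a chain-terminating nucleotide, was at 2.35, 1.72, 1.14 and 1.64 CPM in libraries labelled CryDKO at CT16, against 4.50, 6.55, 2.98 and 2.89 CPM in WT. The groups did not overlap, and the log2 change was -1.30 ± 0.43 (adjusted p = 0.0403, edgeR). The call was lost without CryDKO_CT16 library 12, 13 or 14 or WT_CT16 library 5 or 6 (adjusted p of 0.0734 to 0.120), with no low-count filter (adjusted p = 0.0633) and with limma voom (adjusted p = 0.0699). At CT8 it was at 8.76, 4.13, 1.55 and 2.43 CPM in libraries labelled CryDKO, where library 9 stood highest, and 1.98, 2.63, 3.23 and 3.45 CPM in WT, a log2 change of 0.59 ± 0.41 (adjusted p = 0.263). Bst2, which encodes tetherin, and Ifi35 had log2 changes of -0.09 to 0.18 over both times. Ifi27 had -0.43 ± 0.19 at CT8 (adjusted p = 0.0791), with all libraries labelled CryDKO below all WT libraries, and -0.03 ± 0.19 at CT16. By edgeR, Ifi27 was called lower at CT8 with a mean of at least 50 reads (adjusted p = 0.0480) or only the groups compared (adjusted p = 0.0453). It was also called there with library size alone (adjusted p = 0.00422).

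The GTPases act on vacuoles that hold intracellular microbes. Of the 7, 2 fell at CT8 and 0 at CT16, where 20.3% and 9.15% of all genes fell, so these few genes lie near those shares. Gbp7 was at 10.5, 9.43, 7.19 and 14.7 CPM in libraries labelled CryDKO at CT8, against 18.9, 18.9, 22.7 and 16.2 CPM in WT. No overlap was seen, and the log2 change was -0.87 ± 0.25 (adjusted p = 0.00984, edgeR). At CT16 it was at 15.1, 12.9, 6.97 and 7.58 CPM in libraries labelled CryDKO and 18.4, 11.1, 15.4 and 19.6 CPM in WT, where library 6 lay within the CryDKO range, with a log2 change of -0.60 ± 0.25 (adjusted p = 0.0963). By edgeR, Gbp7 was called lower at CT16 without CryDKO_CT16 library 11 (adjusted p = 0.0343) or WT_CT16 library 6 (adjusted p = 0.0488). Gbp3 had log2 changes of -0.86 ± 0.30 at CT8 (adjusted p = 0.0316) and -0.30 ± 0.30 at CT16. Its CT8 call was lost without CryDKO_CT8 library 10 or 15 or WT_CT8 library 1, 2 or 3 (adjusted p of 0.0525 to 0.0992). Ifi47, Igtp, Irgm1, Irgm2 and Gbp2 were not called, with log2 changes of -0.41 to 0.74 at CT8 and -0.44 to 0.11 at CT16. Members of both GTPase families are similar to each other, a processed pseudogene overlaps Gbp7, and Igtp and Irgm2 share exon sequence, so reads could be split between copies.

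DTX3L and PARP9 form a complex of a ubiquitin ligase and an ADP-ribosyltransferase, and their genes lie head to head. Dtx3l was at 37.2, 22.6, 27.9 and 45.7 CPM in libraries labelled CryDKO at CT8, against 44.6, 45.7, 50.1 and 44.3 CPM in WT. Library 16 was at the WT level, and the log2 change was -0.47 ± 0.18 (adjusted p = 0.0480, edgeR). At CT16 Dtx3l was at 30.6, 31.00, 32.5 and 29.2 CPM in libraries labelled CryDKO, against 63.03, 37.2, 47.00 and 39.8 CPM in WT, with no overlap and a log2 change of -0.60 ± 0.18 (adjusted p = 0.0285). Both calls sat near the threshold: the CT8 call was lost with 12 of the 16 libraries left out in turn (adjusted p up to 0.173, without CryDKO_CT8 library 10), and the CT16 call with 6 of 16 (up to 0.111, without WT_CT16 library 5). With all libraries, the CT8 call of Dtx3l was also lost with the size factors of DESeq2, no low-count filter, DESeq2, no robust option, or only the groups compared (adjusted p of 0.0524 to 0.0682). Parp9 had log2 changes of -0.13 ± 0.17 and -0.34 ± 0.17 and Parp14 of -0.14 ± 0.18 and -0.20 ± 0.18 at CT8 and CT16, with no call. Exons of Dtx3l and Parp9 share 367 bases on opposite strands, and the strand setting of the counting is not given in the sources used here, so their reads cannot be fully told apart.

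For class I antigen processing, Psmb9, a catalytic subunit of the immunoproteasome, fell at CT16. It was at 9.41, 10.3, 10.8 and 10.7 CPM in libraries labelled CryDKO at CT16, against 14.7, 14.8, 15.8 and 19.2 CPM in WT, with no overlap and a log2 change of -0.65 ± 0.19 (adjusted p = 0.0195, edgeR). Without WT_CT16 library 8 the log2 change was -0.57 (adjusted p = 0.0601). At CT8 it was at 11.5, 9.08, 8.63 and 15.02 CPM in libraries labelled CryDKO and 10.5, 12.4, 18.04 and 11.5 CPM in WT, which overlapped. Its log2 change there was -0.24 ± 0.18 (adjusted p = 0.303). The companion subunit Psmb8 had log2 changes of 0.29 ± 0.14 and 0.15 ± 0.14, and the peptide transporter Tap1 -0.01 ± 0.16 and -0.06 ± 0.16, at CT8 and CT16. Psmb9 and Tap1 are also arranged head to head, with 212 bases of exon in common on opposite strands.

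**Figure D3:**
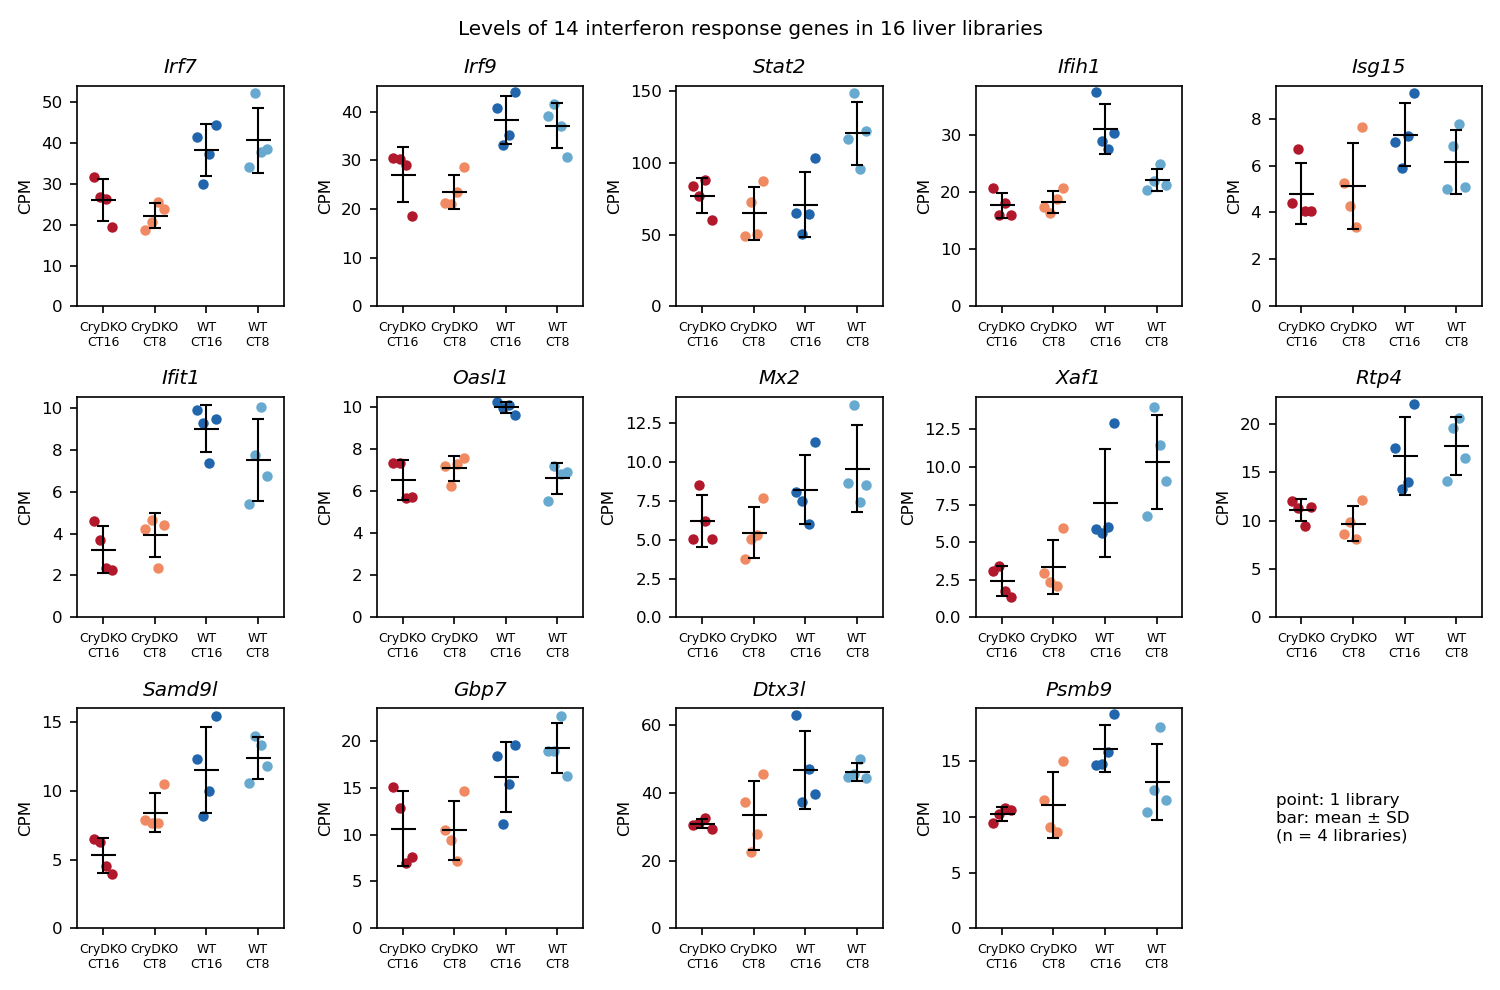
Levels in CPM of the 14 members described in every library, with 1 panel per gene and the y axis starting at 0. Groups run CryDKO CT16, CryDKO CT8, WT CT16 and WT CT8, points are libraries, and bars are the mean ± SD of 4 libraries. Ifit1, Xaf1, Rtp4, Irf9 and Samd9l separate the genotypes at both times, Samd9l only narrowly at CT8, while Ifih1 and Oasl1 are highest in WT at CT16.

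Dosing time was next compared within each genotype. In WT, 2 of 41 members were higher at CT16 than at CT8 and 0 were lower by edgeR, against 1.24% and 1.3% of all genes. These were Ifih1, with 37.5, 28.96, 27.5 and 30.4 CPM at CT16 against 20.4, 22.00, 24.9 and 21.2 CPM at CT8, and Oasl1, with 10.2, 9.96, 10.1 and 9.62 CPM at CT16 against 5.55, 7.18, 6.80 and 6.90 CPM at CT8. In both genes every CT16 library was above every CT8 library, as was also the case for Irgm1 and Psmb8, and this held for 5.52% of all genes, with 0 members and 7.12% of all genes lying wholly below. The log2 changes were 0.49 ± 0.13 (adjusted p = 0.0495) for Ifih1 and 0.59 ± 0.15 (adjusted p = 0.0441) for Oasl1. Both calls were close to the threshold and were lost without any 1 of the WT_CT8 libraries, WT_CT16 libraries 5, 6 and 7, or CryDKO_CT16 library 13, with adjusted p of 0.0520 to 0.165. The Ifih1 call was also lost without CryDKO_CT8 library 15 or 16 or CryDKO_CT16 library 12.

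WT_CT16 library 8 bore on this comparison. Without it, 3 members were higher at CT16, namely Ifih1 (0.54, adjusted p = 0.0110), Oasl1 (0.65, adjusted p = 0.00768) and Irgm1 (0.46, adjusted p = 0.0326, edgeR log2 changes). In the same fit 12.9% of all genes were higher at CT16 and 11.5% lower, so both counts of members lie below the share of all genes. The 2 members lower were Stat2 (-0.97, adjusted p = 0.00391) and Oas2 (-1.93, adjusted p = 0.00373). With the library included, Stat2 had a log2 change of -0.77 ± 0.22 (adjusted p = 0.0567) and Oas2 of -0.85 ± 0.52 (adjusted p = 0.306). Library 8 held 5.65 CPM of Oas2, against 0.808 to 1.30 CPM in the other WT_CT16 libraries and 2.43 to 4.98 CPM in WT_CT8.

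In libraries labelled CryDKO, 0 of 41 members were called between CT16 and CT8 in either direction by edgeR, nor was any of all genes tested (0%), and DESeq2 also called 0 members. At an unadjusted p under 0.05 there were 4, namely Rsad2 (log2 change -1.31 ± 0.43), Samd9l (-0.66 ± 0.21), Ifi27 (0.53 ± 0.19) and Ifi47 (0.44 ± 0.18). All CT16 libraries lay above all CT8 libraries for Oas1a and below them for Samd9l, as for 1.17% and 1.28% of all genes.

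Whether the genotype difference changed with dosing time was tested by the interaction, the CryDKO minus WT difference at CT16 less that at CT8. No member was called by edgeR (0 of 41, against 0.0276% of all genes higher and 0.0138% lower), and DESeq2 also called 0. At an unadjusted p under 0.05 there were 5. Stat2 had 1.02 ± 0.31 (adjusted p = 0.219), and Rsad2 -1.89 ± 0.59 (adjusted p = 0.232). Oasl1 had -0.71 ± 0.21 (adjusted p = 0.217), Ifih1 -0.54 ± 0.19 (adjusted p = 0.255) and Ifit3 -0.89 ± 0.42 (adjusted p = 0.368). Without WT_CT16 library 8, Stat2 (1.22, adjusted p = 0.0237) and Oas2 (1.95, adjusted p = 0.0490) passed the threshold, in a fit where 275 of all 14696 genes were called higher and 293 lower. The genes called by genotype at 1 time alone were therefore not shown to differ between the times in all 16 libraries.

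Libraries of a group differed in the level of the set. The median log2 deviation of the 41 members from their means over all libraries was -0.43 to 0.00 in CryDKO_CT16, -0.31 to 0.12 in CryDKO_CT8, 0.01 to 0.46 in WT_CT16 and -0.08 to 0.39 in WT_CT8. That of all genes tested stayed between -0.04 and 0.04. CryDKO_CT8 library 16 was the highest of its group for 26 of 41 members, WT_CT16 library 8 for 21 and WT_CT8 library 2 for 21. CryDKO_CT16 library 14 was the lowest of its group for 21 members and WT_CT16 library 6 for 23.

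**Figure D4:**
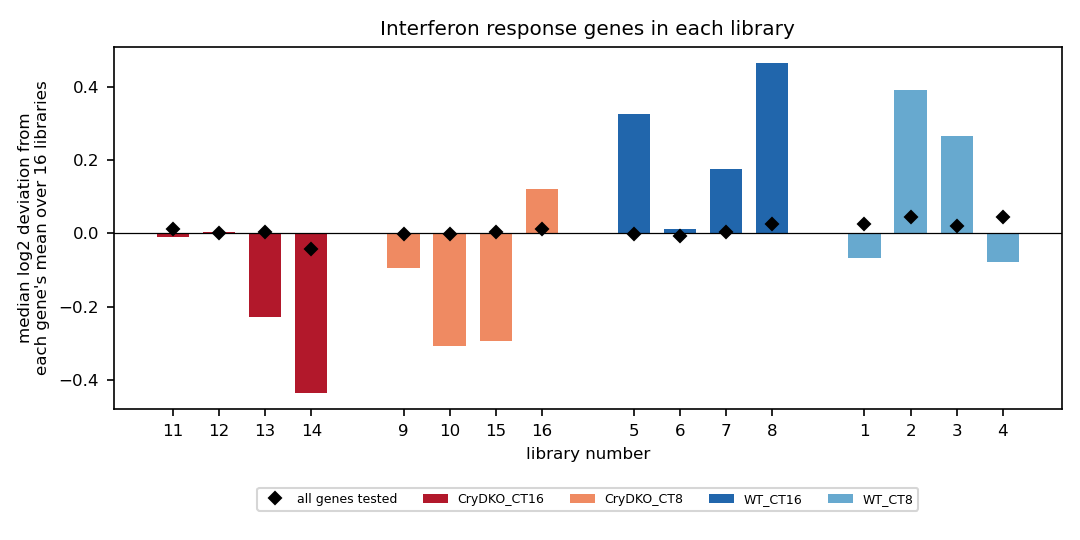
Median log2 deviation of the 41 members from each gene's mean over 16 libraries (bars) and the same for all genes tested (diamonds), by library number. Groups run CryDKO_CT16, CryDKO_CT8, WT_CT16 and WT_CT8; the bars span -0.43 to 0.46, while the diamonds stay within 0.04 of 0 to 2 decimals.

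Few reads came from interferons, the ligands upstream of the members. Of 10 interferon genes, 8 (Ifnb1, Ifna1, Ifna2, Ifna4, Ifna5, Ifne, Ifnl2 and Ifnl3) had 0 of 375312758 reads over all libraries, which allows up to 0.00799 CPM. Ifnk had 11 reads and Ifng 2. Receptors for interferon were detected and 0 of the 5 tested were called by genotype, with log2 changes of 0.10 to 0.55 at CT8 and -0.40 to 0.32 at CT16. The lowest adjusted p, at CT8, was 0.0508 by edgeR. Without WT_CT16 library 8, 1 of the 5 was called higher at CT8, where 21% of all genes rose. The limit on interferon reads covers counting error only, and poly(A) selection and the time of sampling bear on what could be seen.

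The counts of further lists below are to be read against all genes tested, of which 18.7% rose and 20.3% fell by genotype at CT8, 9% rose and 9.15% fell at CT16, and 5.98% rose and 6.89% fell at CT16 without WT_CT16 library 8. Of 14 kinases, STATs, IRFs and brakes, 1 rose and 1 fell by genotype at each time. Without that library 1 rose and 1 fell at CT16. At CT8, 2 rose and 1 fell in that fit, where 21% of all genes rose and 20.6% fell. Jak1, the kinase shared by interferon receptors, rose at CT8 (0.49 ± 0.14, adjusted p = 0.00917). Irf2, a factor that competes with IRF1 for the ISRE, fell at CT8 (-0.50 ± 0.18, adjusted p = 0.0296) and at CT16 (-0.86 ± 0.18, adjusted p = 0.00294), and Irf8, a factor of myeloid cells, rose at CT16 (0.66 ± 0.20, adjusted p = 0.0262), as log2 changes by edgeR.

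Of 14 genes of nucleic acid sensing, 4 rose and 2 fell at CT8, and 2 rose and 2 fell at CT16, or 1 and 1 without WT_CT16 library 8. These are few genes and lie near the shares of all genes. Tlr3, the endosomal receptor of double-stranded RNA, fell at both times (-0.98 ± 0.23, adjusted p = 0.00237 at CT8 and -1.01 ± 0.23, adjusted p = 0.00529 at CT16, log2 changes by edgeR). Ticam1, its adaptor TRIF, rose at CT8 (1.29 ± 0.21, adjusted p = 1.67e-04). Traf3, which links adaptors to the kinases that activate IRF3, rose at both (0.76 ± 0.20, adjusted p = 0.00650 and 0.70 ± 0.20, adjusted p = 0.0232), as did Unc93b1, which carries these receptors to endosomes (0.33 ± 0.12 and 0.50 ± 0.12). Ddx58, which encodes RIG-I, fell at CT16 (-0.43 ± 0.15, adjusted p = 0.0457). Without WT_CT16 library 8, Ddx58 (adjusted p = 0.0525) and Traf3 (adjusted p = 0.0758) were not called at CT16.

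Of 56 other interferon-stimulated genes tested, 15 fell and 4 rose by genotype at CT8, and 10 fell and 1 rose at CT16, or 8 and 1 without WT_CT16 library 8. Among the genes called, the largest falls with their log2 changes by edgeR were Ifi203 (-1.44 ± 0.37, adjusted p = 0.00617) and Gbp4 (-1.33 ± 0.40, adjusted p = 0.0124) at CT8, and Ly6e (-1.68 ± 0.21, adjusted p = 4.97e-05) and Tnfsf10 (-1.65 ± 0.37, adjusted p = 0.00522) at CT16. Trim34a, Ddx60, Cd274, Herc6 and Iigp1 fell at both times, though without WT_CT16 library 8 Cd274 was not called at CT16 (adjusted p = 0.134). Tdrd7 rose at CT8 (0.65 ± 0.12, adjusted p = 6.33e-04). Medians over the list were -0.31 at CT8 and -0.27 at CT16. In WT, 2 of the 56 were higher at CT16 than at CT8 and 0 lower, against 1.24% and 1.3% of all genes. These were Ly6e (0.82 ± 0.21, adjusted p = 0.0455) and Tdrd7 (0.48 ± 0.12, adjusted p = 0.0465), as log2 changes by edgeR. The list's median there was -0.10, with 31 genes below 0. Without WT_CT16 library 8, 7 were higher and 11 lower, in a fit where 12.9% of all genes were higher and 11.5% lower. The list was chosen with earlier results of these data known, and its share of calls is given as a description.

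Of 14 further genes of class I antigen presentation, 6 rose and 1 fell at CT8, or 7 and 1 without WT_CT16 library 8. At CT16, 0 rose and 1 fell, with or without that library. H2-D1 (0.92 ± 0.18, adjusted p = 8.08e-04) and H2-K1 (0.65 ± 0.18, adjusted p = 0.00790), heavy chains of class I, and Tap2 (0.90 ± 0.16, adjusted p = 2.91e-04), the partner of TAP1, rose at CT8, as log2 changes by edgeR. B2m, the light chain, fell at CT8 (-0.61 ± 0.21, adjusted p = 0.0259) and at CT16 (-0.65 ± 0.21, adjusted p = 0.0346). In WT, 13 of the 14 had a log2 change above 0 at CT16 against CT8 (median 0.47), with 1 called higher and 0 lower. Without WT_CT16 library 8, 10 were called higher and 0 lower, where 12.9% of all genes were higher and 11.5% lower. The interaction called 0 of the 14 in all 16 libraries. The H2 genes are near-identical copies, so their separate values are uncertain.

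In whole liver, fewer cells of a type and less RNA per cell cannot be told apart. Markers of Kupffer cells and macrophages, all 12 tested, were higher for 2 of 12 at CT8 and 6 of 12 at CT16 in libraries labelled CryDKO and lower for 0, where 18.7% and 9% of all genes were higher. Without WT_CT16 library 8 the CT16 count was 9 of 12. Their summed level was 128 to 218 CPM in CryDKO_CT16, 82.3 to 201 CPM in CryDKO_CT8, 32.8 to 119 CPM in WT_CT16 and 68.0 to 98.9 CPM in WT_CT8, and no marker of this list was at 0 in any library. Hepatocyte markers were higher for 3 of 6 at CT8 and 2 of 6 at CT16, or 1 without that library, and lower for 0. Markers of plasmacytoid dendritic cells, a main source of interferon alpha, summed to 0.989 CPM at most with 0 of 6 tested, and those of T and NK cells to 3.92 CPM at most with 0 of 8 tested. Stellate cell markers were higher for 3 of 8 at CT8 and 2 of 8 at CT16, or 4 and 2 without that library. Sinusoidal endothelium markers summed to 78.0 to 103 CPM in CryDKO_CT16, 75.6 to 123 CPM in CryDKO_CT8, 45.0 to 123 CPM in WT_CT16 and 89.0 to 125 CPM in WT_CT8. The part of these shifts in the levels of the interferon response genes was not tested.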

How the data were processed

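Liver poly(A) RNA of 16 mouse libraries in 4 groups was analysed from 2 tables deposited by the authors. Per the submitters' processing notes the tools were FastQC, Trimmomatic 0.35, STAR 2.5.3, HTSeq 1.99.2 and DESeq2, with build GRCm39. The sources used here do not give the annotation or the strand setting. The main deposited table holds raw counts of reads per gene symbol, not normalized by the authors. The other deposited table holds a normalized signal, counts divided by a size factor per library as its values show, for 19592 genes with at least 10 reads in total, and it was used in 1 alternative.

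Columns were assigned to groups by their names. They carry a running number, by which libraries are called here, and not the labels' replicate number. Every pair of libraries in a group differed by more than counting error, with a chi-square of 20.2 to 136 for each degree of freedom, so none was taken as a repeat deposit.

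Counts were fitted in R 4.3.3 with edgeR 4.0.16: filterByExpr, TMM scaling, a robust quasi-likelihood model over all 16 libraries with 1 coefficient per group, and 5 two-sided comparisons, adjusted by Benjamini-Hochberg over 14484 genes, with a threshold of 0.05. The SE of a log2 change is its size divided by the square root of F. The fit was tested on simulated data. Alternatives were DESeq2 1.42.0, limma 3.58.1 (voom, and trend on log2 of the normalized signal plus 1), other scalings and filters, no robust option, only the groups compared, and each library left out.

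The members, lists and rules were chosen with earlier results of these data known. Per-library values are given for up to 14 members, those called in most comparisons and then by lowest adjusted p, with at least 1 per role; values of Oas2, Rsad2 and other members were added after they were seen. Promoters came from RefSeq (GRCm38.p6), matched by symbol, and exon overlaps from GENCODE annotation of GRCm38. No reads were realigned. Figures were drawn with Python 3.11.15.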

Additional observations from a re-analysis of the deposited data

Results flagged for a closer look

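In 9 of 164 sets of 4 libraries (41 genes in 4 groups), 1 library lay farther from the rest than Dixon's limit for gap over range, a limit that chance alone passes in about 1 of 20 sets. WT_CT16 library 8 was high for Oas2 at 5.65 CPM, against 0.808 to 1.30 CPM in the other 3, for Oas3 at 0.697 CPM, against 0.180 to 0.248 CPM, and for Xaf1 at 12.9 CPM, against 5.58 to 6.03 CPM. CryDKO_CT8 library 16 was high for Usp18 at 11.8 CPM, against 6.67 to 7.50 CPM, and for Samd9l at 10.5 CPM, against 7.64 to 7.89 CPM. CryDKO_CT8 library 9 was low for Ifi27 at 38.4 CPM, against 55.7 to 58.3 CPM. CryDKO_CT16 library 14 was low for Irf9 at 18.6 CPM, against 29.01 to 30.5 CPM, and library 12 was high for Isg15 at 6.72 CPM, against 4.05 to 4.41 CPM. WT_CT8 library 4 was low for Parp14 at 22.8 CPM, against 27.9 to 28.5 CPM.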

How the results depend on the processing

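No called gene changed direction in any alternative run. With all libraries, members lower by genotype numbered 10 to 22 at CT8, where 10.4% to 35.4% of all genes fell. Scaling by library size alone gave both the 22 and the 35.4%. At CT16 members lower numbered 10 to 14, where 4.6% to 13% of all genes fell. Of 88 counts of calls, 80 stayed within 1.5 times, or at 0 where the main count was 0. Most of the 88 had a main count of 0, so this tally says little about the counts above 0. The exceptions were all for dosing time in WT. Members higher at CT16 were 0 with library size alone and 1 with a mean of at least 50 reads, limma trend or no robust option. In those settings 0.124% to 1.23% of all genes were higher. Members lower were 1, Stat2, with no low-count filter, DESeq2, limma voom or only the 2 groups, where 0.88% to 4.96% of all genes were lower. Scaling by library size alone moved the median of all genes by genotype to -0.36 at CT8 and -0.16 at CT16, and to -0.29 for dosing time in WT, where the members' median became -0.11, with 29 and 34 of 41 members below the median of all genes by genotype at CT8 and CT16. Without any filter, 25231 genes were tested, and at CT8 10 members and 10.4% of all genes fell.

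With 1 library left out, members lower by genotype ranged from 7 to 15 at CT8 and 6 to 13 at CT16. Of all genes, 14.8% to 20.9% fell at CT8 and 6.26% to 9.8% at CT16. Members higher at CT8 ranged from 0 to 1 (Psmb8, without CryDKO_CT8 library 10, where 16.5% of all genes rose). For dosing time in WT, members higher ranged from 0 to 3 and lower from 0 to 2, and for the interaction members higher ranged from 0 to 2, both without WT_CT16 library 8 at the upper end. Without that library 12.9% of all genes were higher and 11.5% lower for dosing time in WT, and 1.87% were higher for the interaction. By the same rule as above, 137 of 160 counts of calls stayed with 1 library left out and 23 moved. Over all settings and left-out libraries, single-gene calls were kept 597 times and lost 102 times. The interaction was not run for only the groups compared. No paired analysis was possible because the columns carry a running number and not the replicate number of the labels. Depth limits low genes such as Oas3 and Mx1, and the causes of these changes were not tested.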
